A study of Homo sapiens with 14 samples.

Results

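Late in a long culture of immortalized human lung fibroblasts, 2 of 14 expression arrays stood apart from all the others, and they are described here as the divergent pair. The pair consists of the arrays labelled A95 replicate 2 and B96 replicate 1. It was chosen by similarity, because each of the 2 arrays was the closest match of the other over all measured rows. The pair was set against 4 arrays called fast-cycling A, labelled A58 replicate 2, A67 replicates 1 and 2, and A95 replicate 1. The remaining 8 arrays were not used in the difference, but the search for closest matches compared the pair with them too.

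All cells were WI-38, a diploid fibroblast strain from human lung that stops dividing after a limited number of passages. In the divergent pair the cells carried hTERT, the catalytic subunit of telomerase, and were labelled passage 95 with the letter A and passage 96 with the letter B. The fast-cycling A arrays came from hTERT cells of letter A, labelled passage 58, 67 or 95. The other 8 arrays were labelled hTERT A at passages 39, 50 and 58 (5 arrays), hTERT B at passage 96 (1 array) and primary cells without hTERT at passage 19 (2 arrays). All cultures were split weekly and seeded at the same density, and the labels state biological duplicates without saying whether these were separate cultures. The sources used here do not say what the letters stand for, how many clones a line holds or how fast each culture grew. Fast-cycling is a working name that only some genes bear out. The mean log2 level of 30 DNA replication genes was 9.97 to 10.54 in these 4 arrays and 8.67 to 9.87 in the 8 arrays outside both sets. That of 33 mitosis genes overlapped, at 10.59 to 10.96 in the 4 and 9.17 to 10.71 in the 8, and so did MKI67, at 10.62 to 10.91 and 8.79 to 10.74.

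Fibroblasts make and remodel the collagen-rich matrix of the lung and secrete chemokines and growth factors. Telomerase extends chromosome ends and lets such cells divide indefinitely in culture. Over long culture, DNA methylation at CpG sites and the activity of genes normally silent in a tissue, such as germline genes, are known to drift between sublines.

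Labels and array similarity disagreed. Of the 14 arrays, 0 had the array sharing its label as its closest match. The divergent pair correlated at r = 0.986 over 28869 rows, and 361 rows differed by at least 1 log2 between its arrays. A95 replicate 2 and A95 replicate 1 correlated at 0.945 with 2748 such rows, and B96 replicate 1 and B96 replicate 2 at 0.944 with 2765. TERT read 12.13 and 12.05 in the pair, 11.04 to 11.29 in the fast-cycling A arrays, 11.70 in the array labelled primary replicate 2 and 7.07 in the array labelled primary replicate 1. TERT, which checks the labels, thus stands against the label primary replicate 2, and arrays are named here only by their labels. Mutual closest matches across labels were not particular to the divergent pair. From primary to A58, replicate 2 of each label and replicate 1 of the next label were each other's closest match as well, at 0.990 to 0.993. The pattern did not hold for every label. A67 replicate 2 was closest to A95 replicate 1, at 0.9876, but A95 replicate 1 was closest to A67 replicate 1, at 0.9884. B96 replicate 2 was closest to A39 replicate 1, at 0.979. Whether the sample titles are displaced by 1 against the columns of the table was not tested. If they are, the 2 arrays of the divergent pair would be duplicates of 1 label, and the label, passage and letter given here for an array could be those of its neighbour.

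**Figure D1:**
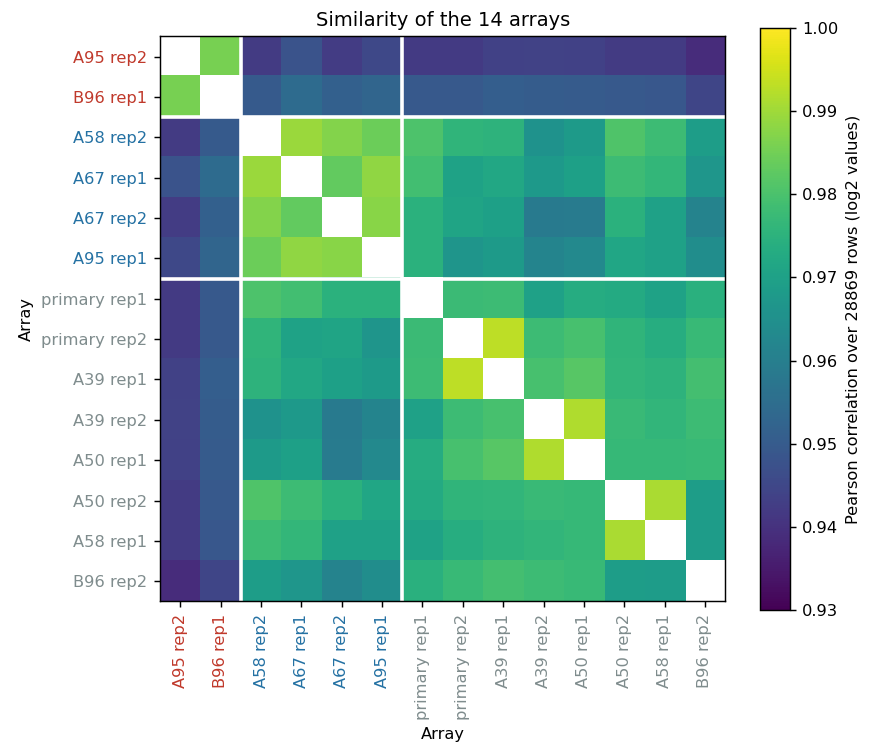
Pearson correlation of log2 values over 28869 rows for every 2 of the 14 arrays, with the divergent pair first (red names), the 4 fast-cycling A arrays next (blue) and the 8 other arrays last (grey); white lines divide the sets and the diagonal is left blank. The pair correlates at 0.986 within itself and at 0.939 to 0.955 with the other 12 arrays, which correlate with each other at 0.958 to 0.993.

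Because the pair was picked from these values, its differences are descriptions and no test was made. The pair correlated with the 12 other arrays at 0.939 to 0.955, with 2151 to 3114 rows at least 1 log2 apart. Within the 4 fast-cycling A arrays r was 0.983 to 0.990, with 222 to 455 such rows. The likeness inside the pair was thus in the range of that inside the fast-cycling A arrays, and no array outside the pair correlated with either of its arrays above 0.955. In the pair's own difference, 168 rows were higher and 193 lower by at least 1 log2 in B96 replicate 1 than in A95 replicate 2.

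The 2 arrays also differed from the other 12 in the distribution of their values. The SD over all rows was 1.89 and 1.91 in the pair, against 2.01 to 2.02 in the fast-cycling A arrays and 1.98 to 2.03 over all 12. Rows below 4 log2 numbered 322 and 358 in the pair, against 543 to 752 in the fast-cycling A arrays and 520 to 752 over all 12. Rows above 12 log2 numbered 458 and 457 in the pair, against 505 to 577 in the 12. The pair's range was therefore narrower at both ends than in any other array. Rows listed at exactly 0 numbered 4 and 3 in the pair, against 17 to 19 in the fast-cycling A arrays. The largest value was 13.97 and 13.98 in the pair, against 14.15 to 14.27 in the 12, while array medians overlapped at 7.48 and 7.44 against 7.26 to 7.48.

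The narrower range had its counterpart in the difference between the sets. In the dimmest 2887 of the rows by mean level, the median difference was 0.35 log2, with 232 rows gained and 15 lost by the rule given next. In the brightest 2886 it was -0.10 log2, with 32 gained and 153 lost. Direction therefore went with level across the rows, and the part of this in the gene results was not tested. Median levels of reference transcripts differed as well. The median of 30 cytosolic ribosomal protein genes was 11.80 to 11.82 in the pair, against 12.16 to 12.24 in the fast-cycling A arrays. RPS20, a protein of the small subunit, read 9.95 and 10.26 in the pair, against 11.79 to 11.96 in the fast-cycling A arrays. RPL38, a protein of the large subunit, read 11.06 and 11.05 in the pair, against 12.57 to 12.68. Of the 30 ribosomal protein genes 4 were lost, the others being RPL10A and RPL11, and 0 were gained. The list is partial. Several ribosomal protein genes outside it were lost too, among them RPS21 (-1.94), RPS3A (-1.77) and RPL31 (-1.75), while RPL39L was gained (1.15). No count was made over all such genes. The 25 common housekeeping genes had a median difference of -0.23 log2 with 0 gained or lost, and 20 very long transcripts a median of -0.02 with 0 gained or lost. The spread of values and the ribosomal protein genes thus set the same 2 arrays apart. The housekeeping genes did so by their mean level, at 11.54 and 11.58 in the pair, against a lowest of 11.61 in the 12. Their per-array medians did not, at 11.51 and 11.48 in the pair, against a lowest of 11.48 in the 12. The per-array medians of the long transcripts did not set the pair apart either. Array quality and the state of the cells cannot be told apart.

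**Figure D2:**
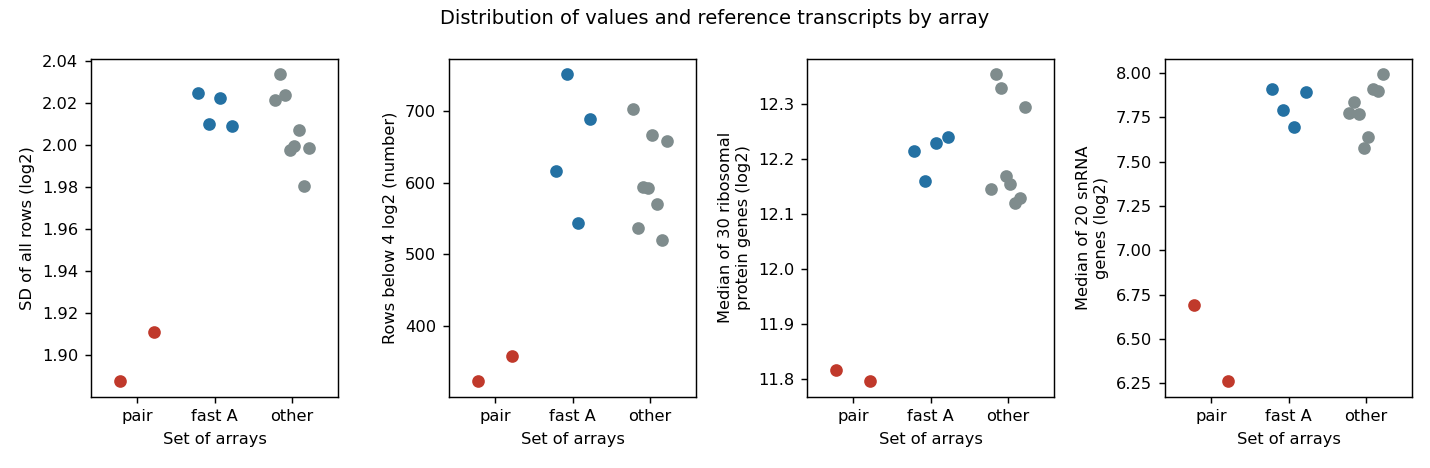
Each point is 1 array, in the divergent pair (left), the fast-cycling A arrays (middle) or the 8 other arrays (right). From left to right the axes give the SD of all rows, the number of rows below 4 log2, the median of 30 ribosomal protein genes and the median of 20 small nuclear RNA genes, in log2 except the number of rows, and none starts at 0. The 2 points of the pair are the lowest of the 14 in every panel.

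A row counted as gained where the pair's mean exceeded the fast-cycling A mean by at least 1 log2 and the 2 and 4 values did not overlap, and as lost in the opposite case. By this rule 1029 rows were gained (3.56% of 28869) and 888 were lost (3.08%). With the array medians set equal, 803 rows were gained and 1152 lost, so that gained rows were 41.1% of those called instead of 53.7%. With 1 row per named gene, 491 of 18377 genes were gained (2.67%) and 584 lost (3.18%). These shares are the background for the lists below, and since the same difference chose the genes, nothing is read from them. Across all 18377 genes the median difference was 0.06 log2. Gained genes had a median difference of 1.35 and a largest of 6.86, and lost genes a median size of 1.31 and a largest of 4.54. A difference of at least 2 log2 was seen for 108 gained and 66 lost genes, and of at least 3 log2 for 40 and 14. Close to the threshold, 100 gained and 118 lost genes lay between 1.0 and 1.1 log2, and 125 and 163 genes lay just outside it between 0.9 and 1.0.

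The gene with the largest gain was IL2, which encodes the T cell growth factor interleukin 2. It read 10.19 and 9.48 log2 in the pair, against 2.85, 2.83, 2.73 and 3.5 in the fast-cycling A arrays and 2.25, 3.05 and 3.6 (lowest, median, highest) in the 8 other arrays. The pair averaged 9.84 ± 0.50 (SD, n = 2) and the fast-cycling A arrays 2.98 ± 0.35 (SD, n = 4), a difference of 6.86. Both arrays of the pair were far above all 12 others, whose values were among the lowest on the arrays. MAGEB2, a cancer-testis antigen gene on the X chromosome, read 9.95 and 10.00 in the pair, against 4.28, 4.28, 4.79 and 4.96 in the fast-cycling A arrays and 4.02 to 4.86 in the other 8, a difference of 5.40. ZNF671, a zinc finger gene often methylated in tumours, read 10.98 and 10.89 in the pair, against 5.99, 5.84, 5.86 and 6.17 in the fast-cycling A arrays and 6.33 to 6.68 in the other 8, a difference of 4.97. In these 3 genes the 12 arrays outside the pair stayed together and the pair stood alone.

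EPB41L3, which encodes a membrane skeleton protein also known as DAL-1, marked the pair by its loss. It read 5.22 and 5.73 in the pair, against 10.62, 10.51, 9.03 and 8.91 in the fast-cycling A arrays and 7.38, 9.75 and 10.45 (lowest, median, highest) in the other 8. The difference was -4.29, and no other array was as low as the pair, although the 12 ranged over more than 3 log2.

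The promoters of these 4 genes are shown because the study's title concerns DNA methylation, which falls on CpG sites. Methylation was not measured on these arrays. The sequences are from RefSeq on GRCh38.p14, 5′ to 3′ on the gene's strand, with each CG in capitals, and cover 300 bases around the annotated start. IL2 (chr4:122456676-122456975, minus strand) held 1 CG, MAGEB2 (chrX:30215313-30215612, plus strand) 21, ZNF671 (chr19:57727575-57727874, minus strand) 11 and EPB41L3 (chr18:5628942-5629241, minus strand) 30. Of the 14208 genes with such a window, 98.2% held at least 1 CG on either strand.
IL2: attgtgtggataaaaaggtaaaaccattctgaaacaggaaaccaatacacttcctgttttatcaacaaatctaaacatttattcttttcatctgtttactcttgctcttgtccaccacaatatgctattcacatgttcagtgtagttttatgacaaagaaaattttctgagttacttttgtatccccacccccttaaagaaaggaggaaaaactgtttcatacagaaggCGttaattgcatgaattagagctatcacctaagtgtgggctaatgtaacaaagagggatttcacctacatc
MAGEB2: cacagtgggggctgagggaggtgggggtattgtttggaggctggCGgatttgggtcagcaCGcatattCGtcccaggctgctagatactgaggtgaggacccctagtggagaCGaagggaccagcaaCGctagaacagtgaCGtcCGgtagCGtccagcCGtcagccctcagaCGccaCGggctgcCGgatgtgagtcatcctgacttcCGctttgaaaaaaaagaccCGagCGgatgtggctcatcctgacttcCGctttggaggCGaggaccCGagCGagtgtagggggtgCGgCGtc
ZNF671: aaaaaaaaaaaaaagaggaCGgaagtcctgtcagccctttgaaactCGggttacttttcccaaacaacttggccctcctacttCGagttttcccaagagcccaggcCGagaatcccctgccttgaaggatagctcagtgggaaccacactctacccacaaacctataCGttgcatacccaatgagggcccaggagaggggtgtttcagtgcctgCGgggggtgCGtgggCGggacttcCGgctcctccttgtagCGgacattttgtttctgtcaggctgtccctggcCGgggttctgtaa
EPB41L3: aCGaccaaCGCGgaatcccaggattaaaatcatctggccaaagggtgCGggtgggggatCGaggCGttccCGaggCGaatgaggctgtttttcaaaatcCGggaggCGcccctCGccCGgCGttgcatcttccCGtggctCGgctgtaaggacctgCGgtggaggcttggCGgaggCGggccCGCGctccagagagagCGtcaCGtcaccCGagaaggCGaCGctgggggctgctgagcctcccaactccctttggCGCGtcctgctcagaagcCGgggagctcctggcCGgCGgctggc
A comparison of CG content over all gained and lost genes is void and is not given, because only 70.7% of gained and 75.5% of lost genes had a window, under the 80% set for such a comparison.

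The other large gains were in genes of many kinds, and 11 of the 15 largest were near the fast-cycling A level in the 8 other arrays. CD80, a ligand that co-stimulates T cells, read 10.26 and 9.66 in the pair, against 5.42 to 5.79 in the fast-cycling A arrays and 5.43 to 6.27 in the other 8. LCP2, the adaptor SLP-76 of T cell receptor signalling, read 10.32 and 10.01 in the pair, against 5.37 to 6.77 and 5.31 to 6.88. KCNN4, a calcium-activated potassium channel, read 9.85 and 9.62 in the pair, against 5.27 to 5.68 and 5.15 to 6.07. Each of these genes is known from immune cells, among others, and in each the pair exceeded all 12 arrays by more than 3 log2. OR4D11, an olfactory receptor gene, read 11.13 and 10.14 in the pair, against 5.64 to 6.25 in the fast-cycling A arrays. LRRC9 and BPIFA4P differed by 4.13 and 4.06. SNORA5A, a small nucleolar RNA gene, read 10.33 and 10.06 in the pair, against 5.73 to 6.55 in the fast-cycling A arrays.

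For a smaller set of large gains the median of the other 8 arrays was not near the fast-cycling A level. ADGRL4, an adhesion receptor first described in endothelium, read 8.10 and 8.63 in the pair and 4.04 to 4.38 in the fast-cycling A arrays, but 4.17, 8.62 and 9.19 (lowest, median, highest) in the other 8. HSPB8, a small heat shock protein gene, read 9.67 and 9.64 in the pair and 5.50 to 5.82 in the fast-cycling A arrays, with a median of 8.82 in the other 8. NETO1 and NETO2, auxiliary subunits of kainate receptors, differed by 4.25 and 4.10, and the other 8 arrays had medians between the sets, at 7.40 and 7.97. In HSPB8 and NETO1 both arrays of the pair were above all 12 others, whose highest values were 9.24 and 7.84. In ADGRL4 and NETO2 some of the other 8 arrays were above the pair. For ADGRL4 and HSPB8 it was the fast-cycling A arrays that lay far from the median of the other 8, while for NETO1 and NETO2 both sets did, on opposite sides.

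Among the losses, S100A4, a calcium-binding protein also known as fibroblast-specific protein, had the largest difference. It read 6.89 and 6.26 in the pair, against 11.37, 11.20, 10.97 and 10.90 in the fast-cycling A arrays and 8.03, 9.78 and 10.56 (lowest, median, highest) in the other 8, a difference of -4.54. CXCL12, a chemokine that holds blood progenitors in their niche, read 6.67 and 6.85 in the pair, against 10.63, 10.44, 9.32 and 9.31 and, in the other 8, 7.68, 9.44 and 10.48. TEK, the angiopoietin receptor TIE2, read 6.77 and 6.79 in the pair, against 9.36 to 9.76 in the fast-cycling A arrays and 9.18 to 10.76 in the other 8. All 12 arrays exceeded the pair in each of these genes. KLHL13, an adaptor of a ubiquitin ligase, and TMEM35A, a chaperone of nicotinic receptors, differed by -3.55 and -3.53. SDHAF3, an assembly factor of succinate dehydrogenase, read 4.69 and 5.01 in the pair, against 7.81 to 8.43 in the fast-cycling A arrays and 7.35 to 8.48 in the other 8. KCNE4, a potassium channel subunit, and NXPH4, a neurexophilin, differed by -3.05 and -2.97. CRABP2, which carries retinoic acid to its nuclear receptors, differed by -3.59, and PHKA1, a subunit of phosphorylase kinase, by -3.14, both with the pair below all 12 arrays.

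Other losses were not confined to the pair. ELAPOR2 read 6.47 and 6.72 in the pair and 10.44 to 11.22 in the fast-cycling A arrays, but 5.31, 5.93 and 7.72 (lowest, median, highest) in the other 8. RSPO2, a secreted enhancer of Wnt signalling, read 5.49 and 5.29 in the pair and 8.24 to 8.97 in the fast-cycling A arrays, with a median of 5.25 in the other 8. GALNT3, which starts mucin-type glycosylation, and FLRT3, an adhesion protein that binds fibroblast growth factor receptors, differed by -4.30 and -3.90, with lowest values in the other 8 of 5.53 and 5.39. For ELAPOR2 and RSPO2 both arrays of the pair lay within the range of the other 8, and for GALNT3 and FLRT3 only B96 replicate 1 did.

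**Figure D3:**
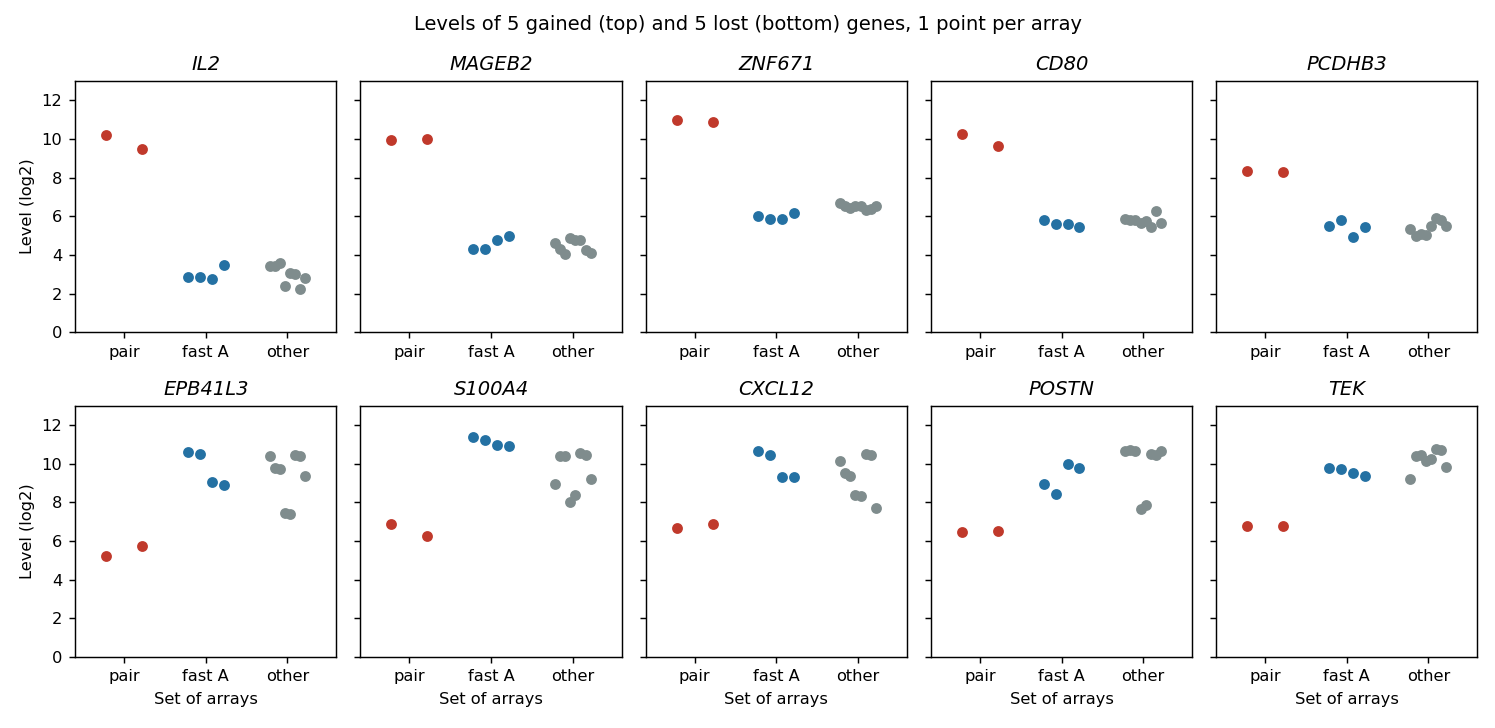
Log2 level of 5 gained genes (top row) and 5 lost genes (bottom row), 1 point per array, in the divergent pair (red, left), the fast-cycling A arrays (blue, middle) and the 8 other arrays (grey, right). IL2, MAGEB2, ZNF671, CD80 and PCDHB3 are above all 12 other arrays in both arrays of the pair, and EPB41L3, S100A4, CXCL12, POSTN and TEK are below all 12.

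The called genes were then followed in the 8 arrays outside both sets, which are no independent check, since the pair was picked for being unlike all the others. Each gene was placed on a scale from 0 at the fast-cycling A mean to 1 at the pair's mean, and the median over the 8 arrays was taken. Of the 491 gained genes, 276 (56.2%) had a median under 0.25, 109 lay between and 106 (21.6%) had a median over 0.75. Of the 584 lost genes, 353 (60.4%) were under 0.25, 151 lay between and 80 (13.7%) were over 0.75. For most called genes the other arrays were thus close to the fast-cycling A level or past it, on the side away from the pair. The limit has no lower bound, and PCDHB2 and FGF7, at -0.96 and -0.98, are counted under it. In 335 gained genes (68.2%) both arrays of the pair were above all 12 others, and in 448 lost genes (76.7%) both were below all 12, counts in which the 4 fast-cycling A arrays are held to the rule. The array labelled B96 replicate 2, which shares a label with the pair, had a median position of 0.25 over the gained genes and 0.19 over the lost genes. For the array labelled primary replicate 1 the median over gained genes was 0.07.

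**Figure D4:**
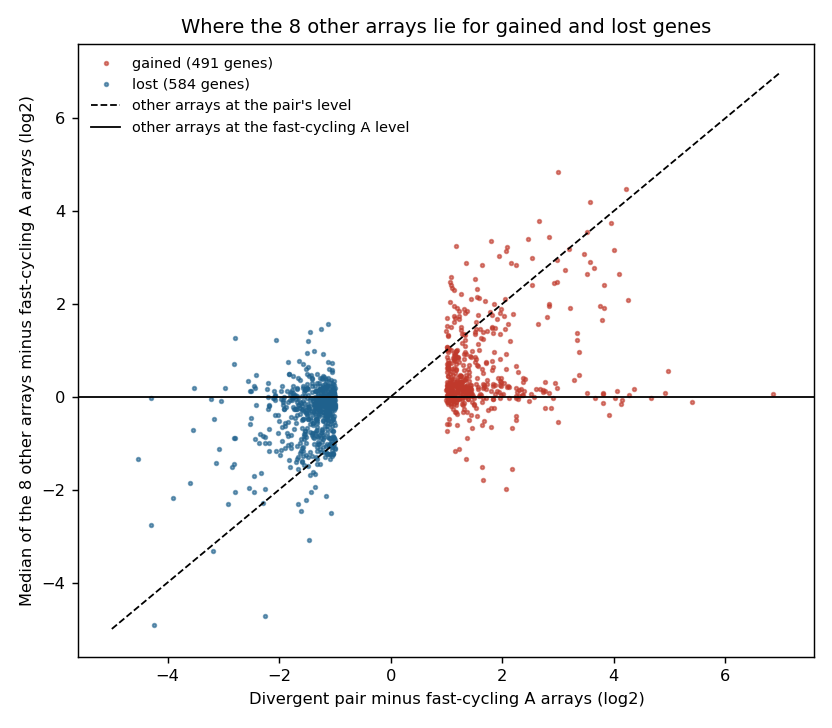
Each point is 1 of the 491 gained (red) or 584 lost (blue) genes, with the divergent pair minus the fast-cycling A mean on the horizontal axis and the median of the 8 other arrays minus the same mean on the vertical axis, both in log2. Points near the solid line at 0 have the other arrays at the fast-cycling A level, and points on the dashed line have them at the level of the pair. The 276 gained and 353 lost genes under the limit of 0.25 include points past the solid line, on the side away from the pair.

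Of the gene groups examined, the clustered protocadherins, homophilic adhesion proteins known from neurons and encoded by tandem genes on chromosome 5, moved the most. Of 26 listed members only 15 were measured. Of these 12 were gained, all of them PCDHB genes, and 0 lost. The median difference was 1.63 log2 beside 0.06 over all genes, and 2.03 against all 12 other arrays. PCDHB3 read 8.36 and 8.31 in the pair, against 5.50, 5.82, 4.91 and 5.44 in the fast-cycling A arrays and 5.0 to 5.93 in the other 8. PCDHB6 read 9.07 and 9.33 in the pair, against 6.02 to 6.48 and 4.92 to 7.82. PCDHB2 read 10.40 and 10.29 in the pair, against 7.86 to 8.70 and 5.66 to 7.90, and PCDHB10 read 10.05 and 9.90, against 7.57 to 8.10 and 6.56 to 9.08. In all 4 the pair was above every other array. All 16 PCDHB genes on the array were taken as a family after the values were seen. This family overlaps the list, so its counts are no second result. Of the 16, 13 were above all 12 other arrays in both arrays of the pair. No such count was made over all genes, but 49 of 173 microRNA genes were above all 12. Genes that follow each other on the chromosome were gained together: 9 in a row from PCDHB8 to the pseudogene PCDHB18P, and 3 in a row from PCDHB2 to PCDHB4. PCDHB15 and PCDHB1 differed by 0.45 and 0.07 and were not gained. These genes are close copies and their rows may share probes, so the separate values are uncertain.

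Genes of the interferon response, which antiviral signalling switches on, were higher in the pair: 8 of 27 were gained and 0 lost, with a median of 0.74. IFI44 read 9.08 and 9.21 in the pair, against 6.17 to 7.05 in the fast-cycling A arrays and 6.32, 8.08 and 9.26 (lowest, median, highest) in the other 8. IFI44L, IFITM1, an inhibitor of viral entry, and HERC6, a ubiquitin ligase, differed by 1.96, 1.95 and 1.56. The mean level of the list was 8.05 to 8.23 in the pair, against 7.24 to 7.35 in the fast-cycling A arrays, but 7.01 to 8.83 in the other 8, which held the pair's range. Against all 12 other arrays the median was 0.33. Of 7 genes of MHC class I presentation, the display of peptides to T cells, 2 were gained, with a median of 0.69. PSMB9, a subunit of the immunoproteasome, read 10.24 and 10.13 in the pair, against 8.22 to 8.75 in the fast-cycling A arrays and 7.14 to 9.87 in the other 8. TAP1, a peptide transporter, differed by 1.02, and the 8 other arrays reached 10.17.

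Secreted factors went in both directions. Of 22 senescence-associated cytokines, factors that arrested fibroblasts are known to release, 4 were gained and 1 lost, with a median of 0.29, or 0.08 after quantile normalization. IL6, an inflammatory cytokine, read 10.54 and 10.56 in the pair, against 6.19, 6.55, 7.25 and 6.87 in the fast-cycling A arrays and 6.77, 9.13 and 11.08 (lowest, median, highest) in the other 8. NRG1, a ligand of ERBB receptors, and VEGFA, an angiogenic factor, differed by 1.27 and 1.01, and CXCL12, described above, was the loss. VEGFA read 9.82 and 9.81 in the pair, and the other 8 arrays reached 9.89. FGF7, a growth factor for epithelium, read 7.46 and 7.82 in the pair, against 9.02 to 9.12 in the fast-cycling A arrays and 9.84 to 10.61 in the other 8. FGF9, a growth factor for mesenchyme, read 9.45 and 8.93 in the pair, against 7.68 to 7.92 and 6.38 to 7.64. The pair and the fast-cycling A arrays thus lay on the same side of the other 8 arrays for both growth factors, with the pair farther out. RSPO3, a secreted Wnt enhancer, differed by 1.02, and TGFB2, a ligand of the TGF-beta receptors, by 1.51. TGFB2 read 8.34 and 7.91 in the pair, but 7.62, 9.15 and 9.90 (lowest, median, highest) in the other 8.

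Matrix genes were mostly near their fast-cycling A level. Of 24 collagen genes 0 were gained and 1 lost, with a median of 0.29, or -0.07 against all 12 other arrays. COL11A1, a fibril collagen, read 5.66 and 5.53 in the pair, against 7.72 to 8.55 in the fast-cycling A arrays and 6.05 to 9.78 in the other 8. POSTN, the matricellular protein periostin, read 6.48 and 6.49 in the pair, against 8.95, 8.45, 9.97 and 9.76 in the fast-cycling A arrays and 7.67 to 10.71 in the other 8. THBS2, a thrombospondin, read 9.67 and 9.68 in the pair, against 6.43 to 6.91, with a median of 9.63 in the other 8. POSTN was therefore lowest in the pair, while THBS2 in the pair was at the level of most other arrays. Of 30 other matrix genes 3 were gained and 1 lost, with a median of 0.21, and BGN, a small proteoglycan, and MFAP5, a microfibril protein, were gained by 1.53 and 1.1. BGN read 9.92 and 9.96 in the pair, but 9.53 to 10.64 in the other 8. Among proteases and their inhibitors, 3 of 19 were gained: the plasminogen activator PLAU (1.02), its receptor PLAUR (1.19) and the metalloproteinase inhibitor TIMP3 (1.79, but 0.21 in the gene's other row). Of 17 contractile genes 2 were gained, TAGLN and SYNPO2, at 1.13 and 1.22, and the list's median was 0.23, or -0.04 against all 12 other arrays. The other 8 arrays reached 12.48 for TAGLN and 8.79 for SYNPO2, above both arrays of the pair.

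Growth-related lists were lower in the pair than in the fast-cycling A arrays, without being low on the scale of the series. Of 30 DNA replication genes 6 were lost and 0 gained, with a median of -0.68, and of 33 mitosis genes 5 were lost and 0 gained, with a median of -0.57. TK1, thymidine kinase, read 9.52 and 9.70 in the pair, against 11.02 to 11.40 in the fast-cycling A arrays and 9.52 to 10.81 in the other 8. HMMR, a spindle protein, read 8.11 and 8.41 in the pair, against 9.61 to 10.28 and 8.06 to 9.79. CENPE, a kinetochore motor, and CDK1, the kinase that drives entry to mitosis, differed by -1.54 and -1.30. Against all 12 other arrays the medians were 0.14 for DNA replication and 0.03 for mitosis, so the sign depends on the arrays chosen for comparison. MKI67, a marker of cycling cells, read 10.55 and 10.52 in the pair, against 10.62 to 10.91 in the fast-cycling A arrays and 8.79 to 10.74 in the other 8. CDKN2A, which encodes p16, read 7.84 and 7.79 in the pair, against 8.10, 7.85, 6.33 and 6.54, and 8.80 to 9.59 in the other 8. CDKN1A, which encodes p21, differed by 0.16. CDKN1B, which encodes p27, read 8.09 and 8.42 in the pair, against 9.55 to 10.10 and 8.97 to 9.33, and CCNG1, a target of p53, differed by -1.49.

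Replication-dependent histone genes, whose messages lack a poly(A) tail, were taken as a family after the values were seen. Of 55 measured genes 24 were lost and 2 gained, with a median of -0.81. H2BC5 read 7.04 and 7.26 in the pair, against 10.05, 10.09, 10.32 and 10.42 in the fast-cycling A arrays and 8.35 to 9.99 in the other 8. H2BC17 was gained, at 9.22 and 9.16 in the pair, against 7.30 to 7.84 in the fast-cycling A arrays. The median level of the 55 genes was 9.16 to 9.22 in the pair, 9.83 to 10.47 in the fast-cycling A arrays and 8.35 to 9.93 in the other 8. The pair's histone level thus lay inside the range of the series, as did its replication genes. Histone genes are close copies, and their rows may share probes.

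Small nuclear RNA genes, which encode the RNAs of the spliceosome, behaved otherwise. Of 20 measured genes, grouped by RefSeq gene type, 12 were lost and 1 gained, with a median of -1.24. RNU2-1, the U2 gene, read 9.42 and 9.47 in the pair, against 11.42 to 11.64 in the fast-cycling A arrays and 11.21 to 12.20 in the other 8. RNU5A-1, a U5 gene, read 6.75 and 6.17 in the pair, against 8.65 to 9.07 and 8.24 to 9.85. RNU12, of the minor spliceosome, was gained at 9.14 and 8.79 in the pair, against 6.84 to 7.38 and 6.85 to 7.26. The median of the 20 genes was 6.69 and 6.26 in the pair, against 7.70 to 7.91 in the fast-cycling A arrays and 7.58 to 8.0 in the other 8, and 13 genes were below all 12 other arrays in both. Small nucleolar RNA genes, which guide modification of ribosomal RNA, shared this less, with a median of -0.08. Of 175, 14 were lost (8.0%, beside 3.18% over all genes) and 6 gained (3.43%, beside 2.67%). Both arrays of the pair were below all 12 others in 25 of them and above in 34. Genes beyond all 12 were not counted over all genes. The small nuclear RNA values set the same 2 arrays apart as the spread of all rows and the ribosomal protein genes, and the part of array quality in them was not tested. Many of these genes are near-identical copies, so their separate values are uncertain.

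Among 173 microRNA genes, 13 were gained and 3 lost, with a median of 0.27. MicroRNAs repress messages that match their seed, bases 2 to 8. The 5p sequences of 5 gained genes are shown because they fall in 2 groups of shared seed, with the seed in capitals, 5′ to 3′, from RefSeq on GRCh38.p14. Of the 16 gained or lost genes 15 had such a sequence. Seeds were looked up for these genes only, so how many of the 173 carry the same seeds without being gained was not counted.
hsa-let-7d-5p: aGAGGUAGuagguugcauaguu
hsa-miR-98-5p: uGAGGUAGuaaguuguauuguu
hsa-let-7f-5p: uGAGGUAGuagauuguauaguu
hsa-miR-211-5p: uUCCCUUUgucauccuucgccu
hsa-miR-204-5p: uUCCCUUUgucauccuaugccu
MIRLET7D, of the let-7 family known for repressing growth genes, read 11.46 and 10.70 in the pair, against 6.26, 6.16, 6.08 and 6.15 in the fast-cycling A arrays and 6.14 to 6.79 in the other 8, a difference of 4.92. MIR98 and MIRLET7F1, with the same 5p seed, differed by 2.29 and 1.02, and their 3p arms, not shown, share the seed UAUACAA. MIR211 read 12.23 and 11.79 in the pair, against 8.21 to 8.75 in the fast-cycling A arrays and 8.21 to 8.99 in the other 8, and MIR204, which shares its 5p seed, differed by 1.07. In all 5 both arrays of the pair were above the 12 others, as in 49 of the 173 microRNA genes. Whether these rows read mature microRNAs, precursors or host transcripts was not tested.

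Of 33 cancer-testis and germline genes 26 had a positive difference, with a median of 0.30 beside 0.06 over all genes, and 3 were gained, MAGEB2 among them, with 0 lost. Their mean level was 6.94 to 6.97 in the pair, against 6.4 to 6.6 in the fast-cycling A arrays and 6.25 to 6.39 in the other 8. The pair was thus above every other array, as it was for the dimmest rows in general, and the part of that in the list was not tested. TEX14, needed for bridges between germ cells, read 7.80 and 8.25 in the pair, against 6.53 to 6.78 in the fast-cycling A arrays and 6.30 to 7.12 in the other 8. CTAG2, a cancer-testis antigen gene, differed by 1.31. Of 41 genes often methylated in cancers, 2 were gained and 4 lost, ZNF671 and EPB41L3 among them, with a median of 0.02. PCDH10, an adhesion gene of that list, read 6.94 and 6.46 in the pair, against 9.37 to 9.67 in the fast-cycling A arrays and 7.01 to 10.01 in the other 8. DNMT1, the maintenance DNA methyltransferase, differed by -0.53, DNMT3A by 0.04 and DNMT3B by -0.27, and 0 of 16 genes of the DNA methylation machinery were gained or lost. NDN, an imprinted growth suppressor gene, read 8.74 and 8.73 in the pair, against 5.02 to 5.58 in the fast-cycling A arrays, and reached 10.20 among the other 8. Its neighbour MAGEL2 differed by 0.01.

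Markers were checked for other cell types, since in bulk RNA fewer cells of a type and less RNA per cell cannot be told apart. The mean level of 19 fibroblast genes was 11.43 in both arrays of the pair, against 11.48 to 11.61 in the fast-cycling A arrays and 11.77 to 12.07 in the other 8. The pair was the lowest of the 14 by this mean, which includes S100A4 at a difference of -4.54. By the median deviation of the 19 genes from their means over all arrays, the pair was at -0.11 and -0.10. The fast-cycling A arrays were lower, at -0.51 to -0.16, and the other 8 higher. Of the 19 genes 12 had a positive difference and 7 a negative one. The list's median difference was 0.13, or -0.14 against all 12 other arrays. COL1A1 stood at 13.20 and 13.13 in the pair, against 12.59 to 12.77 in the fast-cycling A arrays, and VIM, the intermediate filament protein vimentin, at 12.55 and 12.57, against 12.88 to 12.97. Of the 19 genes 1 was lost, S100A4, and 0 were gained. Of 17 lymphocyte markers 1 was gained, CD4 at 1.21, with a list median of 0.14 and mean levels of 6.66 to 6.81 in the pair, against 6.41 to 6.65 in the fast-cycling A arrays. CD3D, a subunit of the T cell receptor complex, read 6.43 and 6.26 in the pair, against 6.16 to 6.56, and PTPRC, the pan-leukocyte protein CD45, read 5.72 and 5.52, against 5.20 to 5.6. CD3D thus lay within the range of the fast-cycling A arrays in both arrays of the pair. PTPRC did so in B96 replicate 1 only and was above that range in A95 replicate 2. IL2, CD80 and LCP2 were high in the pair, and CD4 was above all 12 other arrays in both of its arrays. CD69 (1.08) and PTPRCAP (1.25), lymphocyte genes outside the list, were picked because they were gained, and no count was made over all such genes. In the list itself 16 of 17 markers were neither gained nor lost, and 11 had a positive and 5 a negative difference. Its median of 0.14 was below that of the muscle list (0.33) and the pluripotent list (0.31). Whether lymphocytes were present was not tested. Of 13 T cell cytokine genes only IL2 and IL5 were gained, the second at 1.15, and the median was 0.11, or -0.03 after quantile normalization. Of 13 endothelial genes PECAM1 was gained at 1.59 (0.71 in its other row) and TEK lost, while CDH5, the endothelial cadherin, read 6.43 and 6.41 in the pair, against 5.83 to 6.33. Lists for myeloid, epithelial, neural, muscle, skeletal and pluripotent cells had medians of -0.01 to 0.33 and at most 1 gene gained or lost each.

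**Figure D5:**
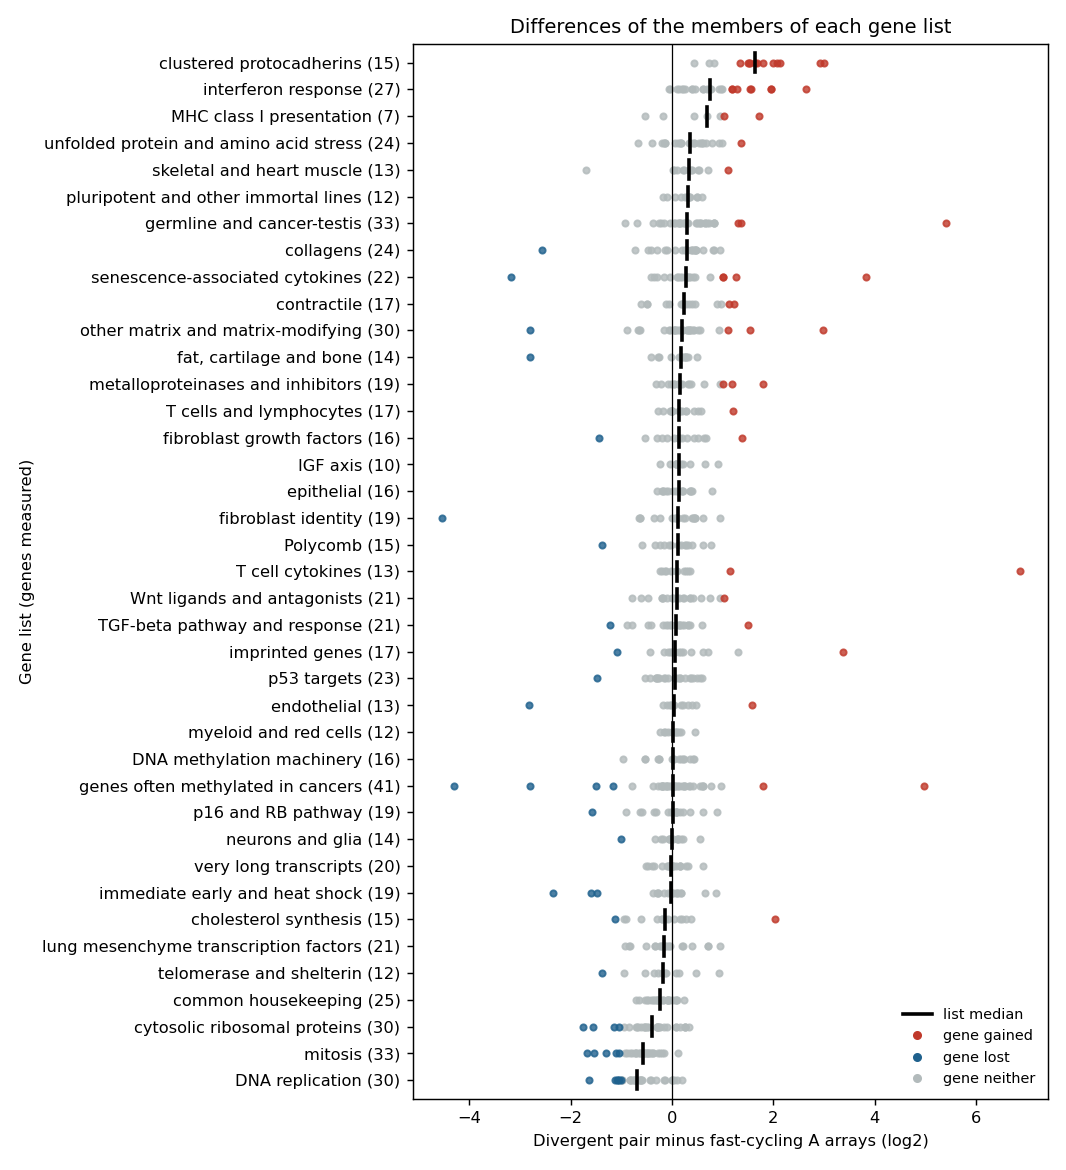
Divergent pair minus fast-cycling A mean (log2) for every measured gene of 39 lists, 1 row per list with the number of genes in brackets; bars mark list medians, and points are coloured as gained, lost or neither. The clustered protocadherins have the highest median, at 1.63, and DNA replication the lowest, at -0.68.

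Gained and lost genes were found on every autosome and the X chromosome. Median differences by chromosome ran from 0.00 on chromosome 18 to 0.13 on chromosome 21. Over all genes 2.67% were gained and 3.18% lost. Chromosome 18 had 4.17% of its genes gained and 5.3% lost, and chromosomes 4 and 8 had 4.94% and 4.55% lost. On chromosome 5, which holds the protocadherins, 4.42% of genes were gained. On chromosome 6, which holds the main histone clusters, 5.64% were lost. Outside those families, runs of 3 adjacent gained genes were IFI44L, IFI44 and ADGRL4 on chromosome 1, BAMBI, C10orf126 and LYZL1 on chromosome 10, CD69, KLRF1 and CLEC2B on chromosome 12, and GSTA1, GSTA5 and GSTA3 on chromosome 6. BAMBI, a decoy receptor of TGF-beta signalling, differed by 3.23 and CLEC2B, a lectin of the natural killer gene complex, by 2.16. The run of 3 adjacent lost genes outside the histone clusters held RSPO2, EIF3E and EMC2 on chromosome 8, with EIF3E, a translation initiation factor subunit, at -1.36 and EMC2, of the endoplasmic reticulum membrane complex, at -1.18.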

How the data were processed

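Expression of WI-38 cells was measured on 14 Affymetrix human Gene 1.0 ST arrays, 1 per sample. Values are those of the authors' deposited table, on a log2 scale read from their range of 0 to 14.27, with 28869 rows per array. The sources used here do not give the background correction, normalization or genome build. The number of arrays limits the precision. Symbols came from the platform annotation and were updated through RefSeq: 19310 rows had 1 symbol, 1752 several and 7807 none. Each of 18377 genes was represented by its row of highest mean level. The pair, its comparison arrays and the 39 gene lists were chosen with earlier results of these data known. Differences are means of 2 arrays minus means of 4, computed with Python 3.11.15, pandas 2.3.3 and numpy 2.4.6. The calls were tried on simulated data with noise like that of the fast-cycling A arrays. Planted differences there were well above the 1 log2 threshold, so calls close to it and the pair's narrower range were not covered. No statistical test was made, because the pair was chosen from the same values. Named genes were the 15 largest gains and 15 largest losses, up to 4 gained or lost genes per list, 4 marker genes, and TERT, CDKN2A, CDKN1A, MKI67 and 3 DNA methyltransferases. Other genes were chosen after their values were seen. Alternatives were quantile normalization, equal array medians, a filter on dim rows, 1 row per gene, a threshold of 2 log2, no overlap rule, all 12 other arrays as comparison, and leaving out each array.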

Additional observations from a re-analysis of the deposited data

Results flagged for a closer look

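Among the 99 named genes, 3 had 1 fast-cycling A array far from the other 3 of that set, relative to the spread of the set. Chance flags about 1 in 20 such groups. IL2 read 3.5 in A95 replicate 1, against 2.73 to 2.85 in the others. ADGRL4 read 4.38 in A95 replicate 1, against 4.04 to 4.07. BGN, the proteoglycan biglycan, read 8.65 in A58 replicate 2, against 8.31 to 8.34. In each gene the far value lay on the side of the divergent pair, and the pair was still above it.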

How the results depend on the processing

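Without any 1 of the 6 arrays, 1026 to 1321 rows were gained and 889 to 1102 lost. A filter on dim rows left 669 gained rows, 1 row per gene gave 491 gained and 584 lost, and a threshold of 2 log2 gave 198 and 130. Quantile normalization gave 841 gained rows and 1015 lost, of which 802 and 840 were also called on the deposited values. Equal array medians gave 803 and 1152. With all 12 other arrays as comparison 752 were gained and 759 lost. Of 981 recomputed differences of named genes 123 moved by more than the spread between arrays. Among named genes that were gained or lost 0 differences changed sign. Changes of sign were not counted for named genes that were neither, such as CDKN2A, CDKN1A and MKI67. Changes of sign in list medians were counted only for lists whose median on the deposited values was at least 0.1 log2 in size. By this count 11 of 390 recomputed list medians changed sign. They were T cell cytokines at -0.028 after quantile normalization and -0.13 after the filter, epithelial genes at -0.044 without A95 replicate 2 (up to 0.17 without another array), and 8 lists against all 12 other arrays. Those 8 were collagens at -0.067, other matrix genes at -0.0004, contractile genes at -0.043, IGF axis at -0.041, DNA replication at 0.14, mitosis at 0.03, telomerase and shelterin at 0.030, and fibroblast identity at -0.14. The cause was not tested. No paired analysis was possible because the results come from no test. Without detection calls, the level at which dim rows stop responding is unknown.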

Other observations

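Of the 28869 rows 7807 had no gene symbol, and of these 470 were gained (6.02%) and 184 lost (2.36%). They made up 470 of all 1029 gained rows but 8 of the 23 gained by at least 4 log2, and 184 of all 888 lost rows but 7 of the 11 lost by at least 4 log2. In 396 of the 470 gained rows (84.3%) both arrays of the pair were above all 12 others, beside 76.7% of all gained rows. In 172 of the 184 lost rows (93.5%) both were below, beside 80.6% of all lost rows.

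Of 15 cholesterol synthesis genes 1 was gained and 1 lost, with a median of -0.13. DHCR7, which makes cholesterol from its last precursor, read 9.54 and 9.51 in the pair, against 7.39 to 7.55 in the fast-cycling A arrays and 9.02 to 9.85 in the other 8. IDI1, an isomerase of the isoprenoid steps, read 9.28 and 9.61 in the pair, against 10.39 to 10.70 and 10.05 to 10.74. FOS, an immediate early transcription factor gene, read 8.13 and 8.05 in the pair, against 11.05, 10.57, 10.36 and 9.77 in the fast-cycling A arrays and 7.28 to 10.13 in the other 8. FOSB and NR4A2 differed by -1.59 and -1.48. NOP10, a component of the telomerase ribonucleoprotein, read 9.40 and 9.11 in the pair, against 10.40 to 10.87 in the fast-cycling A arrays and a lowest value of 10.38 in the other 8.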
